A study of Drosophila melanogaster with 10 samples.

Results

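The 5 genes described here encode chromatin and transcription factors of the Drosophila melanogaster testis, and their RNA was followed across 10 RNA-seq libraries of whole testes. They are the bromodomain genes tBRD-1, tBRD-2 and tBRD-3 and the Plus3 domain genes tplus3a and tplus3b. All 5 were found by symbol, ignoring case, among the 17412 FlyBase identifiers of the deposited count files, and all 5 passed the filter on low counts, as 13831 genes did.

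Bromodomains bind acetylated lysines, above all those of histone tails. The tBRD proteins belong to the BET type of bromodomain protein, whose widely expressed fly member is fs(1)h, and tBRD-1 is known to work in spermatocytes with the testis-specific TATA-binding-protein-associated factors (testis TAFs) that switch on genes for meiosis and sperm formation. tBRD-1 binds tBRD-2 and tBRD-3 and is needed for male fertility. The Plus3 domain is best known from Rtf1 of the Paf1 complex, which travels with elongating RNA polymerase II, and the testis Plus3 proteins have been found as partners of tBRD-1.

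The groups were B9d1 KD, a group labelled Tektin-C KD, a group labelled Klp59D KD, the sa mutant and wild type (WT), with 2 libraries in each. The knockdowns (KD) carried an RNA interference transgene against B9d1, Tektin-C or Klp59D in a w background with bam-Gal4 and UAS-dicer2. The bam-Gal4 driver is active in late dividing spermatogonia and early spermatocytes, so the transgenes act in germ cells, and dicer2 strengthens the interference. The sa mutant (sa-/-) lacks a testis TAF, and the labels give no driver for it or for WT. Knockdown flies spent 3 days at 22°C and then 8 days at 30°C, whereas the other flies stayed at 22°C, for 12 days (sa mutant) or 10 days (WT). RNA interference, driver and warmth therefore cannot be told apart in a comparison of a knockdown with WT or with the sa mutant. The labels call B9d1 KD enriched for young spermatocytes, the other knockdowns and the sa mutant enriched for mature spermatocytes, and WT a mix of all male germ cell stages. Each library was made from 100 pairs of testes, pooled from males under 2 days old, after removal of ribosomal RNA.

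The libraries held 17621525 to 30798942 counts. Within a group the libraries differed by little more than sampling noise, with median squared deviations at 1.03 to 1.08 times what binomial sampling gives, where libraries of different groups deviated 27.1 to 266 times as much as sampling. The 2 libraries of a group were therefore summed and counted as 1 sample, no comparison has a replicate check, and no test or p-value is given. Levels are counts per 1e6 (CPM) after TMM scaling, a scaling on the bulk of the genes. Intervals are exact 95% intervals for counting error only, and a gene was called higher or lower when it was at least 2-fold apart.

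The targeted genes checked the labels. B9d1 was at 9.44 CPM in B9d1 KD and at 109 CPM in WT, and sa was at 3.47 CPM in the sa mutant and at 39.2 CPM in WT. In the group labelled Tektin-C KD, Klp59D was at 29.7 CPM and Tektin-C at 203 CPM, against 340 CPM of Klp59D and 221 CPM of Tektin-C in WT. In the group labelled Klp59D KD, Tektin-C was at 12.1 CPM and Klp59D at 335 CPM. These last 2 sets of libraries went against their labels, each with the gene of the other label low, and are named below by what they are labelled, as Tektin-C-labelled and Klp59D-labelled libraries.

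The members are small, compact genes (dm6 coordinates, Ensembl release 115). tBRD-1 (FBgn0039124) lies on the minus strand at 3R:23891597-23893560 with 1903 bases of exon, of which 1539 are coding. tBRD-2 (FBgn0034423) lies on the plus strand at 2R:19259909-19262294 with 2332 exon bases and 2022 coding. tBRD-3 (FBgn0050417), at 2R:23326739-23327581 on the minus strand, is a single exon of 843 bases with 804 coding.

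The Plus3 genes are neighbours. tplus3a (FBgn0051702) is at 2L:22071144-22072902 on the plus strand with 1710 exon bases and 1323 coding, and tplus3b (FBgn0051703) is at 2L:22102626-22104401 on the minus strand with 1727 and 1317. They stand 29723 bases apart on opposite strands, with 1 other gene between them when transposons are left out. That gene, ttm3, had 32.8 and 32.7 CPM in B9d1 KD, 95.4 and 93.0 CPM in the Tektin-C-labelled libraries, 38.8 and 39.0 CPM in the Klp59D-labelled ones, 18.3 and 19.5 CPM in the sa mutant, and 181 and 168 CPM in WT. It was highest in WT, which neither Plus3 gene was. Reads that match both Plus3 genes could be split or lost by the authors' counting, and how many there are was not tested. tBRD-3 overlaps CG9861 on the other strand over 7 bases, and tBRD-1 overlaps the pseudogene CR46402 over 43 bases. CG9861 was lowest in the sa mutant, at 110 and 104 CPM, where tBRD-3 was highest.

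tBRD-1 had 227 and 216 CPM in B9d1 KD, 222 and 213 CPM in the Tektin-C-labelled libraries, 222 and 227 CPM in the Klp59D-labelled ones, 143 and 141 CPM in the sa mutant, and 87.1 and 85.2 CPM in WT. The knockdowns overlapped one another and lay above both sa mutant libraries, which lay above both WT libraries. From the highest group to the lowest the range was 2.61-fold, and the knockdowns did not differ as neighbours beyond counting error. The outer pair did, with the Tektin-C-labelled libraries at 0.969 times (0.944 to 0.994) the Klp59D-labelled ones. That gap was smaller than the one between the 2 libraries of B9d1 KD, at a ratio of 0.953. The sa mutant was 1.65-fold above WT (95% interval 1.57 to 1.72).

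tBRD-2, the binding partner of tBRD-1, had 254 and 253 CPM in B9d1 KD, 258 and 252 CPM in the Tektin-C-labelled libraries, 241 and 241 CPM in the Klp59D-labelled ones, 98.7 and 95.9 CPM in the sa mutant, and 87.3 and 88.2 CPM in WT. All knockdown libraries were high, and with TMM scaling the sa mutant stood close to WT. The lowest knockdown was 2.48-fold (2.40 to 2.56) above the sa mutant, while the sa mutant exceeded WT by 1.11-fold (1.06 to 1.16). B9d1 KD and the Tektin-C-labelled libraries did not differ beyond counting error.

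tBRD-3 followed another order. It had 45.7 and 43.2 CPM in B9d1 KD, 34.1 and 31.9 CPM in the Tektin-C-labelled libraries, 35.4 and 35.5 CPM in the Klp59D-labelled ones, 59.5 and 63.7 CPM in the sa mutant, and 8.31 and 10.0 CPM in WT. No group overlapped another, and the sa mutant was highest and WT lowest, 6.71-fold apart. That is the widest range among the 5 genes, and it rests on 267 WT counts in all.

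tplus3a was the least abundant member per exon base in every group. It had 9.61 and 9.26 CPM in B9d1 KD, 17.5 and 17.8 CPM in the Tektin-C-labelled libraries, 10.7 and 10.4 CPM in the Klp59D-labelled ones, 5.002 and 5.152 CPM in the sa mutant, and 9.84 and 8.76 CPM in WT. The Tektin-C-labelled libraries were the highest, 1.67-fold (1.50 to 1.86) above the next group, and the sa mutant was the lowest. B9d1 KD, the Klp59D-labelled libraries and WT stood together, with neighbours that did not differ beyond counting error.

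tplus3b had 24.3 and 25.6 CPM in B9d1 KD, 39.4 and 37.7 CPM in the Tektin-C-labelled libraries, 23.9 and 24.2 CPM in the Klp59D-labelled ones, 8.03 and 7.18 CPM in the sa mutant, and 11.9 and 11.8 CPM in WT. The order matched that of tplus3a at its ends, with the Tektin-C-labelled libraries highest and the sa mutant lowest, 5.08-fold apart. B9d1 KD and the Klp59D-labelled libraries did not differ beyond counting error. In 23 of the 25 pairs of libraries of a member and group the ratio of the libraries held 1 within its interval, and both exceptions were of tBRD-1, at ratios of 0.953 and 0.960.

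**Figure D1:**
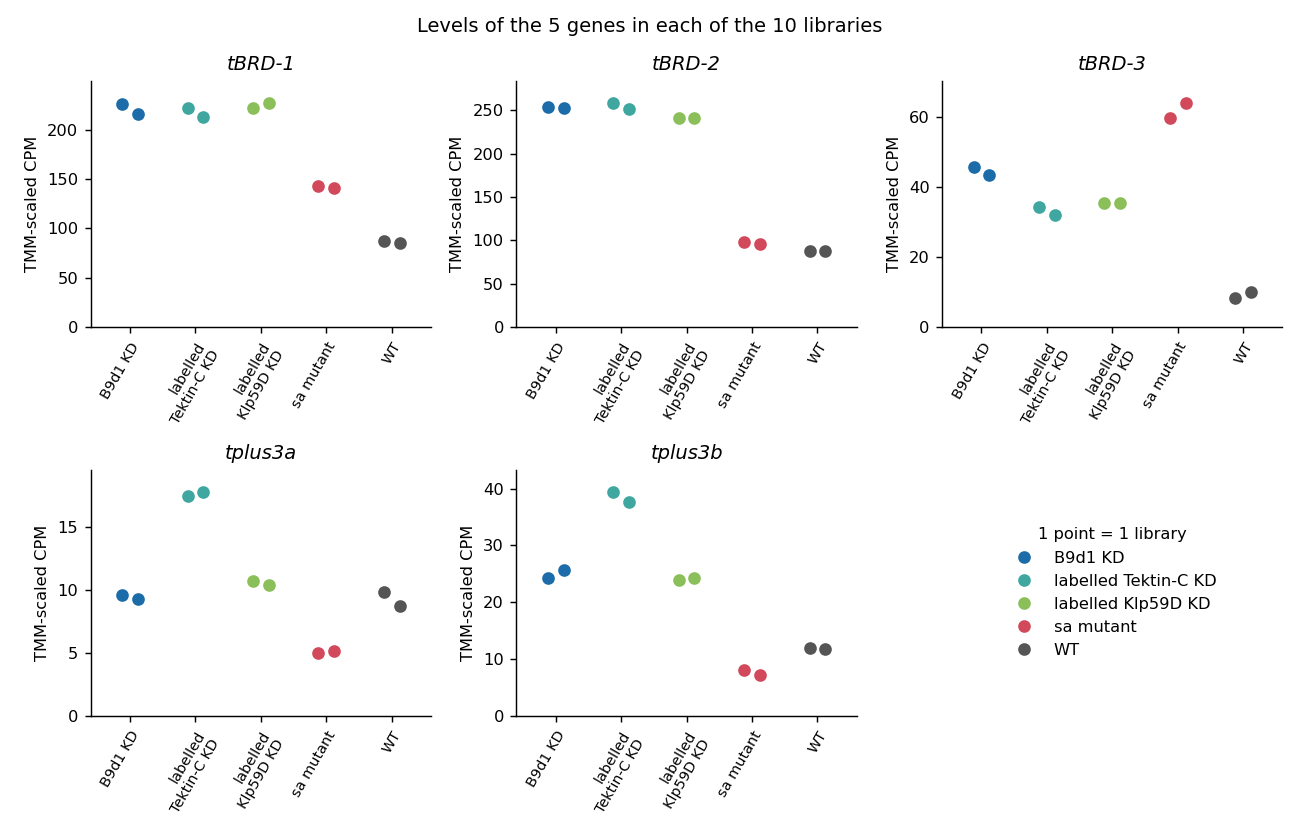
TMM-scaled CPM (vertical axes, linear, from 0) of each gene in each of the 10 libraries, by group; 1 point is 1 library. tBRD-1 and tBRD-2 are high in all knockdown libraries, tBRD-3 is highest in the sa mutant at 59.5 and 63.7 CPM, and both Plus3 genes are lowest in the sa mutant.

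Per length of exon, each tBRD gene was above both Plus3 genes within every group. tBRD-1 reached 116 CPM per kilobase in B9d1 KD, 114 in the Tektin-C-labelled libraries, 118 in the Klp59D-labelled ones, 74.5 in the sa mutant and 45.2 in WT. It lay above 88.0% to 91.9% of the 13613 ranked genes in the altered genotypes and above 79.0% in WT. tBRD-2 lay above 91.3% of genes in B9d1 KD and above 76.6% in WT. tBRD-3 lay above 89.0% of genes in the sa mutant and above 56.0% in WT. tplus3a was near the middle of the genes, from 34.9% below it in the sa mutant to 54.7% in the Tektin-C-labelled libraries, with 41.8% in WT. tplus3b ran from 40.7% in the sa mutant to 68.2% in the Tektin-C-labelled libraries, with 46.5% in WT.

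Against WT, the same 4 genes were at least 2-fold higher in each knockdown, tBRD-1, tBRD-2, tBRD-3 and tplus3b. In B9d1 KD the folds over WT were 2.57 (2.46 to 2.68) for tBRD-1, 2.89 (2.77 to 3.01) for tBRD-2, 4.82 (4.25 to 5.49) for tBRD-3 and 2.11 (1.87 to 2.38) for tplus3b, while tplus3a was at 1.02 (0.876 to 1.18) and its libraries overlapped those of WT. Of all genes tested, 27.3% were at least 2-fold higher and 25.7% at least 2-fold lower in this comparison, and none of the 5 was lower. The members' median log2 fold was 1.36, beside 0.08 over all genes. In a whole testis, more cells of a type and more RNA per cell cannot be told apart.

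In the Tektin-C-labelled libraries the folds over WT were 2.53 (2.42 to 2.64) for tBRD-1, 2.90 (2.78 to 3.03) for tBRD-2, 3.58 (3.14 to 4.09) for tBRD-3 and 3.25 (2.89 to 3.65) for tplus3b. tplus3a was 1.90-fold above WT (1.66 to 2.19), just under the threshold, and without WT replicate 1 it was at 2.04-fold and all 5 genes were called. Over all genes 21.2% were called higher and 17.1% lower, and 4 of 5 members were higher and 0 lower. The members' median log2 fold was 1.54, beside 0.13 over all genes.

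The Klp59D-labelled libraries gave 2.61-fold for tBRD-1, 2.75-fold (2.63 to 2.87) for tBRD-2, 3.85-fold (3.39 to 4.39) for tBRD-3, 1.14-fold (0.984 to 1.32) for tplus3a and 2.03-fold (1.80 to 2.29) for tplus3b over WT. The last value sits on the threshold. Without replicate 2 of these libraries it was 1.98-fold, and 3 rather than 4 members were called. Here 23.6% of all genes were called higher and 23.2% lower. These 3 comparisons share the WT libraries, so their likeness is not independent.

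In the sa mutant only tBRD-3 was called, at 6.71-fold over WT (5.92 to 7.63), and this fold exceeded that of 95.1% of all genes. tBRD-1 was 1.65-fold (1.57 to 1.72) and tBRD-2 1.11-fold (1.06 to 1.16) over WT. tplus3a was at 0.548 times (0.459 to 0.654) and tplus3b at 0.639 times (0.550 to 0.743) the WT level, with both sa mutant libraries below both WT libraries for each. Among all genes 26.4% were called higher and 27.7% lower, against 1 and 0 of the 5 members.

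**Figure D2:**
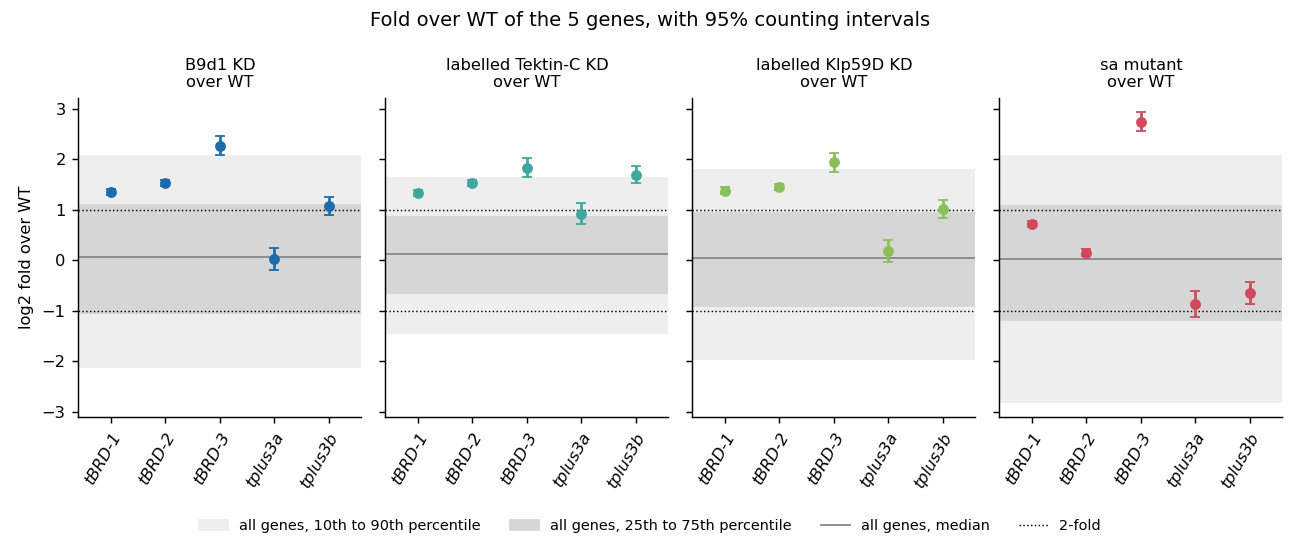
Log2 ratio of TMM-scaled counts over WT (vertical axis) for the 5 genes in each altered genotype; points are groups of 2 summed libraries, bars are 95% counting intervals, and the shaded bands and grey line give the spread and median of the 13831 genes tested. The tBRD-3 point is the highest in every panel, and the Plus3 genes lie below 0 in the sa mutant panel only.

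The choice of scaling bears on every one of these folds. Scaled by total counts (library size alone) instead of TMM, the median log2 fold of all genes over WT was 0.65 in B9d1 KD, 0.23 in the Tektin-C-labelled libraries, 0.59 in the Klp59D-labelled ones and 0.78 in the sa mutant, against 0.08, 0.13, 0.05 and 0.02 with TMM. The folds of the members moved with it, and in the sa mutant tBRD-1 was then 2.82-fold over WT and was called. tBRD-2 was at 1.9-fold there and was not called, so its closeness to WT in the sa mutant depends on the scaling. tplus3a was at 0.938 times and tplus3b at 1.09 times the WT level. The lower level of tplus3b in the sa mutant thus changed direction with the scaling. With library size alone, each altered genotype had tBRD-3 at 3.84-fold over WT or more.

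Among the knockdowns, scaled with TMM, the tBRD genes were at most 1.35-fold apart and the Plus3 genes up to 1.87-fold. With library size alone the tBRD genes were the farther apart. In B9d1 KD against the Tektin-C-labelled libraries, where 14.6% of all genes were called higher and 19.7% lower, 0 of the 5 were called. tBRD-1 was at 1.01-fold (0.989 to 1.04) and tBRD-2 at 0.995-fold (0.971 to 1.02), and the other members at 1.35-fold (1.27 to 1.44) for tBRD-3, 0.534-fold (0.479 to 0.595) for tplus3a and 0.649-fold (0.606 to 0.696) for tplus3b. With library size alone the first pair was at 1.41-fold and 1.38-fold, tBRD-3 at 1.88-fold, tplus3a at 0.744-fold and tplus3b at 0.904-fold. In B9d1 KD against the Klp59D-labelled libraries, 0 of the 5 were called beside 6.28% of all genes higher and 7.13% lower, and the folds ran from 0.893 for tplus3a to 1.25 for tBRD-3. Between the Tektin-C-labelled libraries and the Klp59D-labelled ones, 0 of the 5 were called beside 14.5% higher and 6.75% lower. There tplus3a was 1.67-fold (1.50 to 1.86) and tplus3b 1.60-fold (1.49 to 1.72) higher in the Tektin-C-labelled libraries, and the tBRD genes were within 0.929-fold and 1.06-fold. With library size alone these Plus3 folds were 1.23 and 1.18, and the tBRD genes were all lower in the Tektin-C-labelled libraries, at 0.685-fold to 0.779-fold.

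Against the sa mutant, tBRD-2 and both Plus3 genes were higher in each knockdown and tBRD-3 was lower. tBRD-2 was higher by 2.60-fold (2.52 to 2.69) in B9d1 KD, 2.62-fold (2.53 to 2.71) in the Tektin-C-labelled libraries and 2.48-fold (2.40 to 2.56) in the Klp59D-labelled ones. tplus3b was higher by 3.30-fold (2.94 to 3.71), 5.08-fold (4.54 to 5.70) and 3.17-fold (2.83 to 3.57) in the same order, and tplus3a by 1.85-fold (1.59 to 2.16), 3.47-fold (3.01 to 4.02) and 2.08-fold (1.79 to 2.42). tBRD-1 was also higher in each knockdown, though by 1.54-fold to 1.59-fold only, and tBRD-3 was lower, at 0.719-fold (0.682 to 0.758) in B9d1 KD, 0.533-fold (0.501 to 0.567) in the Tektin-C-labelled libraries and 0.574-fold (0.542 to 0.607) in the Klp59D-labelled ones.

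The called members were 2 of 5 in B9d1 KD (tBRD-2 and tplus3b), beside 23.9% of all genes higher and 16.1% lower than in the sa mutant. In the Tektin-C-labelled libraries 3 of 5 were called higher (tBRD-2, tplus3a and tplus3b), beside 27.1% higher and 23.6% lower, and in the Klp59D-labelled ones the same 3 were called beside 24.0% higher and 16.3% lower. No member was called lower. With library size alone tBRD-3 passed the threshold for lower in the Tektin-C-labelled libraries (0.336-fold) and in the Klp59D-labelled ones (0.491-fold). In the first of these tBRD-2 was then under the threshold at 1.65-fold and tBRD-1 changed direction to 0.967-fold, and in the second tplus3a was under it at 1.77-fold.

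Ratios between members within one sample do not depend on the scaling. Per exon base, tBRD-2 stood to tBRD-1 as 0.936 (0.914 to 0.958) in B9d1 KD, 0.955 (0.930 to 0.980) in the Tektin-C-labelled libraries, 0.876 (0.855 to 0.897) in the Klp59D-labelled ones, 0.560 (0.539 to 0.581) in the sa mutant and 0.832 (0.787 to 0.880) in WT. The sa mutant was the low one, with both of its libraries below all others. tBRD-3 stood to tBRD-1 as 0.454 (0.435 to 0.473) in B9d1 KD, 0.341 (0.324 to 0.360) in the Tektin-C-labelled libraries, 0.356 (0.340 to 0.373) in the Klp59D-labelled ones, 0.983 (0.942 to 1.03) in the sa mutant and 0.241 (0.212 to 0.274) in WT. In the sa mutant tBRD-3 RNA therefore matched tBRD-1 RNA per length, and it exceeded tBRD-2 RNA at a ratio of 1.76 (1.68 to 1.84), against 0.290 (0.255 to 0.329) in WT.

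The Plus3 pair shifted too. tplus3b stood to tplus3a per exon base as 2.63 (2.38 to 2.90) in B9d1 KD, 2.16 (1.99 to 2.35) in the Tektin-C-labelled libraries, 2.26 (2.05 to 2.48) in the Klp59D-labelled ones, 1.48 (1.25 to 1.74) in the sa mutant and 1.27 (1.08 to 1.49) in WT. tplus3b was the more abundant of the pair in every library. Its share of the pair's counts was 72.6%, 68.6% and 69.5% in the knockdowns in that order, 59.9% in the sa mutant and 56.1% in WT, and the intervals of the knockdowns did not reach those of the sa mutant or WT.

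**Figure D3:**
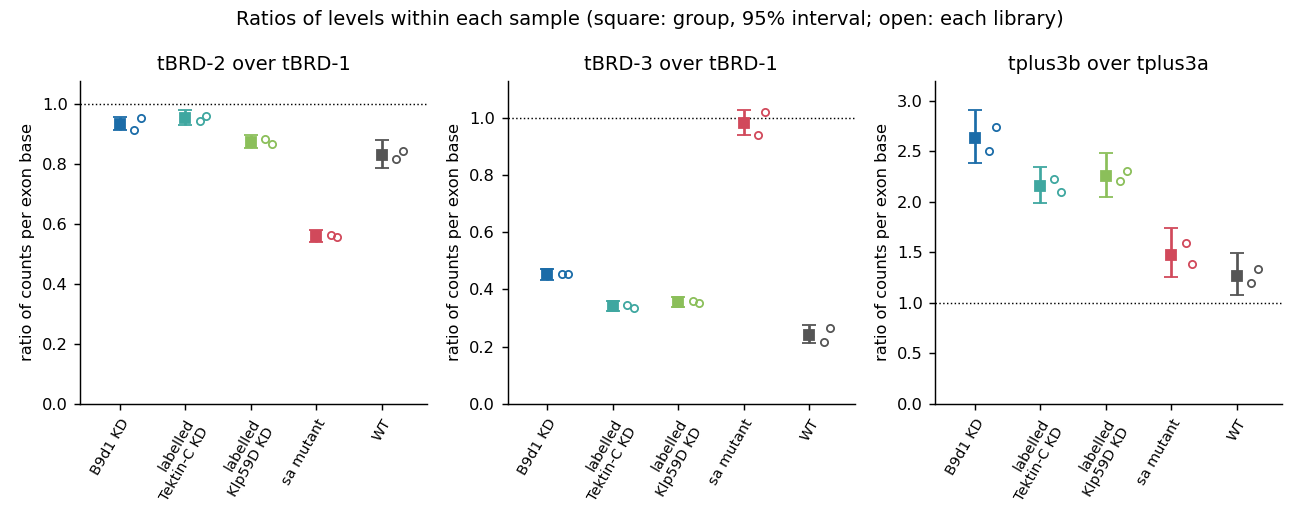
Ratio of counts per exon base (vertical axes, linear, from 0) of tBRD-2 over tBRD-1, tBRD-3 over tBRD-1 and tplus3b over tplus3a in each group; squares are the summed libraries with 95% intervals, open circles the single libraries, and the dotted line is a ratio of 1. The sa mutant has the lowest tBRD-2 ratio, 0.560, and the highest tBRD-3 ratio, 0.983, and the tplus3b ratio is above 2 in the knockdowns.

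The general relatives of both families did not keep a fixed ratio to them. tBRD-1 over fs(1)h, the general BET gene, was 27.6 (26.6 to 28.6) in B9d1 KD, 61.4 (58.0 to 65.0) in the Tektin-C-labelled libraries, 42.7 (40.9 to 44.5) in the Klp59D-labelled ones, 37.1 (35.1 to 39.3) in the sa mutant and 20.1 (18.7 to 21.6) in WT, per exon base. The annotated exons of fs(1)h span many isoforms, so these ratios compare groups and overstate the gap between the genes where few of its exons are used. tplus3b over Rtf1, the Plus3 gene of the Paf1 complex, was 0.140 (0.133 to 0.148) in B9d1 KD, 0.224 (0.213 to 0.235) in the Tektin-C-labelled libraries, 0.121 (0.115 to 0.128) in the Klp59D-labelled ones, 0.0488 (0.0439 to 0.0541) in the sa mutant and 0.154 (0.137 to 0.171) in WT. tplus3a over Rtf1 was highest in WT, at 0.121 (0.107 to 0.137), and lowest in the sa mutant, at 0.0330 (0.0290 to 0.0375). Rtf1 RNA was thus above that of either testis Plus3 gene per exon base in every group.

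Likeness between genes was measured as the root mean square difference of their log2 CPM over the 5 groups, each gene centred on its own mean, with small values for like profiles. The members' values to one another were 0.28 for tBRD-1 and tBRD-2, 0.34 for tBRD-2 and tplus3b, 0.40 for tplus3a and tplus3b, and 1.22 for tBRD-3 and either Plus3 gene. Over all 13830 other genes the median distance was 0.84 to tBRD-1, 0.96 to tBRD-2 and 1.08 to tBRD-3. tBRD-2 ranked 387 among the genes nearest to tBRD-1, so many other genes came closer, and tBRD-3 lay farther from the Plus3 genes than the median gene. With 5 groups that share 1 WT, such distances are descriptions.

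Nearest to tBRD-1 were Usp8, which encodes a ubiquitin protease (0.049), CG9471, CG31933, asRNA:CR44179 and nsr (0.085). tBRD-2 was nearest to Ref2 (0.099), CG6923, del, a gene of piRNA cluster transcription, CG10505 and Cnx99A, a calnexin of the endoplasmic reticulum (0.115). The genes nearest to tBRD-3 were the pseudogene CR32511 (0.114), mof, the histone H4 acetyltransferase of dosage compensation, CG4854, CG31156 and TfIIEbeta, a subunit of a general transcription factor (0.141). mof had 76.7 CPM in B9d1 KD, 47.7 CPM in the Tektin-C-labelled libraries, 64.0 CPM in the Klp59D-labelled ones, 92.8 CPM in the sa mutant and 15.2 CPM in WT, the same order as tBRD-3 at both ends.

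AMPdeam, an AMP deaminase gene (0.074), Adck5, asRNA:CR43615, CG42655 and vih, a ubiquitin-conjugating enzyme gene of mitosis (0.088), came nearest to tplus3a. The closest match of all was nudE, a regulator of the dynein motor, to tplus3b (0.033), followed by CG18063, CG32391, CG3081 and CG30271 (0.106). nudE had 189 CPM in B9d1 KD, 284 CPM in the Tektin-C-labelled libraries, 187 CPM in the Klp59D-labelled ones, 56.2 CPM in the sa mutant and 91.8 CPM in WT. Several of these like genes were near the bottom of the measured range, among them CR32511 at 0.138 CPM in WT and CG3081 at 0.310 CPM in WT. These names came from many near ties: when 1 library was left out, 1 to 5 of each 5 stayed.

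**Figure D4:**
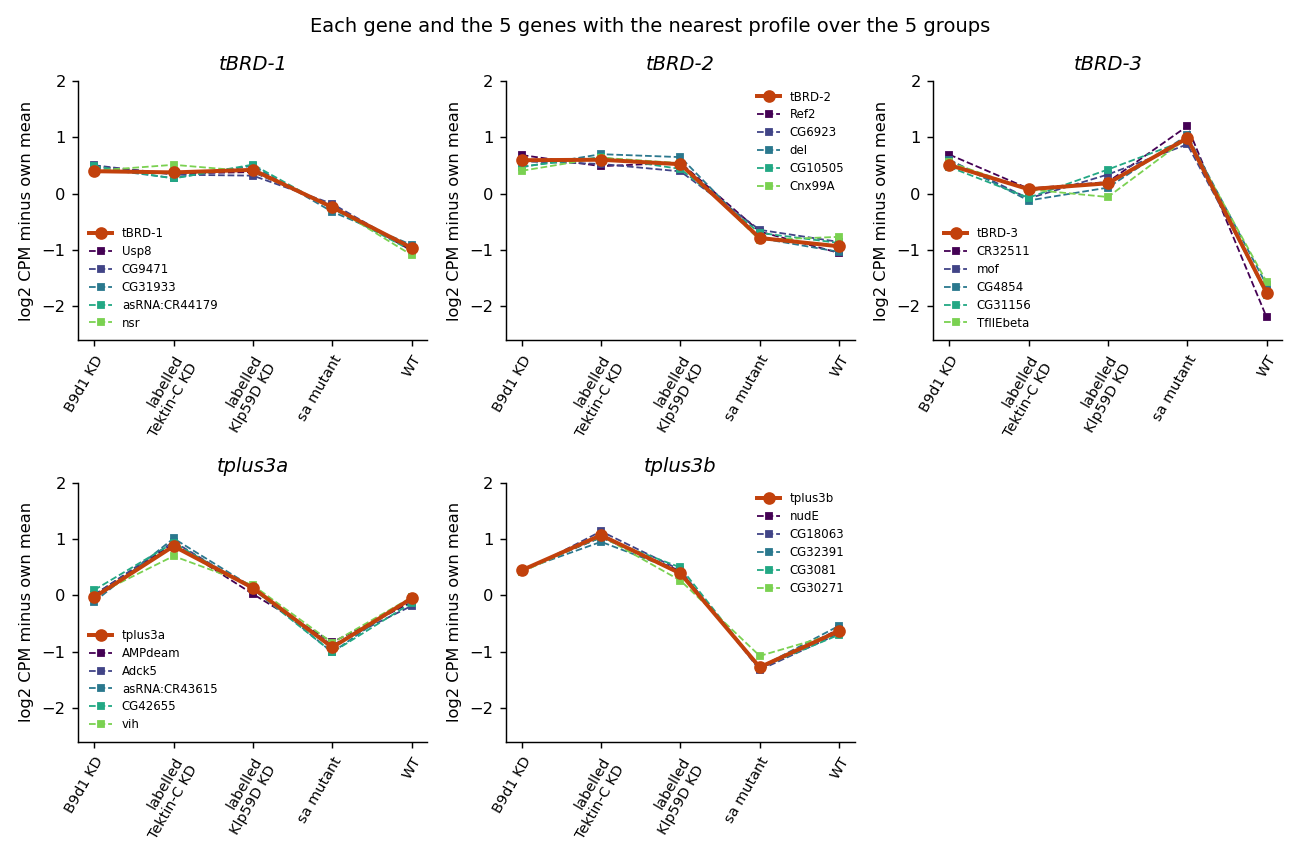
Log2 CPM minus the gene's own mean over the 5 groups (vertical axes) for each member (thick line) and the 5 genes nearest to it (dashed lines). The lines of tBRD-1 and tBRD-2 are flat over the knockdowns and drop in the sa mutant and WT, tBRD-3 and its neighbours peak in the sa mutant, and both Plus3 profiles peak in the Tektin-C-labelled libraries and are lowest in the sa mutant.

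The testis TAF and tMAC genes were set beside the 5 genes by lists. Testis TAF genes encode the spermatocyte variants of TAF subunits, and tMAC is the testis meiotic arrest complex that works alongside them. Of 5 testis TAF genes, 3 were at least 2-fold higher in B9d1 KD (can, sa and nht), 1 in the Tektin-C-labelled libraries (mia), 4 in the Klp59D-labelled ones (all but Taf12L) and 3 in the sa mutant (can, nht and Taf12L), in each case over WT and beside the 27.3%, 21.2%, 23.6% and 26.4% of all genes given above. sa, the mutated gene, was the 1 called lower, in the sa mutant. The list's median log2 folds over WT were 1.58, 0.89, 1.50 and 2.42, with sa itself counted. In the Tektin-C-labelled libraries 2 were called without WT replicate 1 (can joined) or without WT replicate 2 (sa joined).

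Within that list the genes fell on either side of the members. mia, a TAF6 relative, had 79.5 CPM in B9d1 KD, 164 CPM in the Tektin-C-labelled libraries, 154 CPM in the Klp59D-labelled ones, 43.2 CPM in the sa mutant and 48.2 CPM in WT. With TMM it was, like tBRD-2, near the WT level in the sa mutant. nht, a TAF4 relative, had 49.1 CPM in B9d1 KD, 30.4 CPM in the Tektin-C-labelled libraries, 41.9 CPM in the Klp59D-labelled ones, 105 CPM in the sa mutant and 16.4 CPM in WT. can, a TAF5 relative, was at 98.5 CPM in the sa mutant and 18.0 CPM in WT, and Taf12L, a TAF12 relative, at 252 CPM in the sa mutant and 46.9 CPM in WT. nht and can, like tBRD-3, were thus highest or near highest in the sa mutant, with distances to tBRD-3 of 0.37 and 0.42.

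Of the 9 tMAC genes, 8 were called higher over WT in B9d1 KD, 4 in the Tektin-C-labelled libraries, 6 in the Klp59D-labelled ones and 6 in the sa mutant, and 0 lower, beside 27.3%, 21.2%, 23.6% and 26.4% of all genes higher. The list's median log2 folds were 1.77, 0.79, 1.21 and 1.47. comr had the highest folds of the list in every knockdown, at 84.7 CPM in B9d1 KD, 37.5 CPM in the Tektin-C-labelled libraries, 48.3 CPM in the Klp59D-labelled ones, 32.4 CPM in the sa mutant and 6.96 CPM in WT. mip40 was not called in any of these comparisons, at log2 folds of -0.26, 0.00, -0.64 and 0.52. aly, achi, vis, tomb, wuc and Caf1-55 were all called in B9d1 KD, and in the sa mutant wuc alone of these 6 was not, at a log2 fold of 0.94.

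topi, which encodes a zinc finger subunit of tMAC, was the list gene most like a member. It had 157 CPM in B9d1 KD, 162 CPM in the Tektin-C-labelled libraries, 134 CPM in the Klp59D-labelled ones, 45.0 CPM in the sa mutant and 48.3 CPM in WT. Its distance to tBRD-2 was 0.16 and its rank among all genes was 24, and its distance to tplus3b was 0.26 with rank 97. achi, a homeodomain gene, was nearest to tBRD-3 among the testis TAF and tMAC genes, at 0.26 and rank 90. In the sa mutant, topi and mia were at 0.932 and 0.896 times the WT level, and with library size alone topi and mia joined the genes above WT, so that 9 of 9 tMAC genes and 4 of 5 testis TAF genes were above it.

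The Paf1 complex holds Rtf1, whose Plus3 domain the testis pair shares. 3 of its 5 genes were called higher over WT in B9d1 KD (Rtf1, atms and Atu), 1 in the Tektin-C-labelled libraries (Rtf1), 2 in the Klp59D-labelled ones (Rtf1 and atms) and 3 in the sa mutant (Rtf1, atms and Ctr9), with 0 lower, beside 27.3%, 21.2%, 23.6% and 26.4% of all genes higher. Scaled by library size alone, 5, 1, 3 and 5 were called, beside 41.0%, 23.7%, 37.5% and 44.5% of all genes. Rtf1 had 327 CPM in B9d1 KD, 315 CPM in the Tektin-C-labelled libraries, 363 CPM in the Klp59D-labelled ones, 284 CPM in the sa mutant and 142 CPM in WT. Its profile was near that of tBRD-1, at a distance of 0.17 and rank 52, and its fold of 2.01 (1.94 to 2.08) in the sa mutant sits on the threshold and was not called without sa mutant replicate 2. hyx was called in none of the 4 comparisons, at log2 folds of 0.68, 0.34, 0.28 and 0.23, and Ctr9 and Atu differed between groups, Ctr9 with a log2 fold of 1.54 in the sa mutant and Atu with one of -0.08 in the Tektin-C-labelled libraries.

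**Figure D5:**
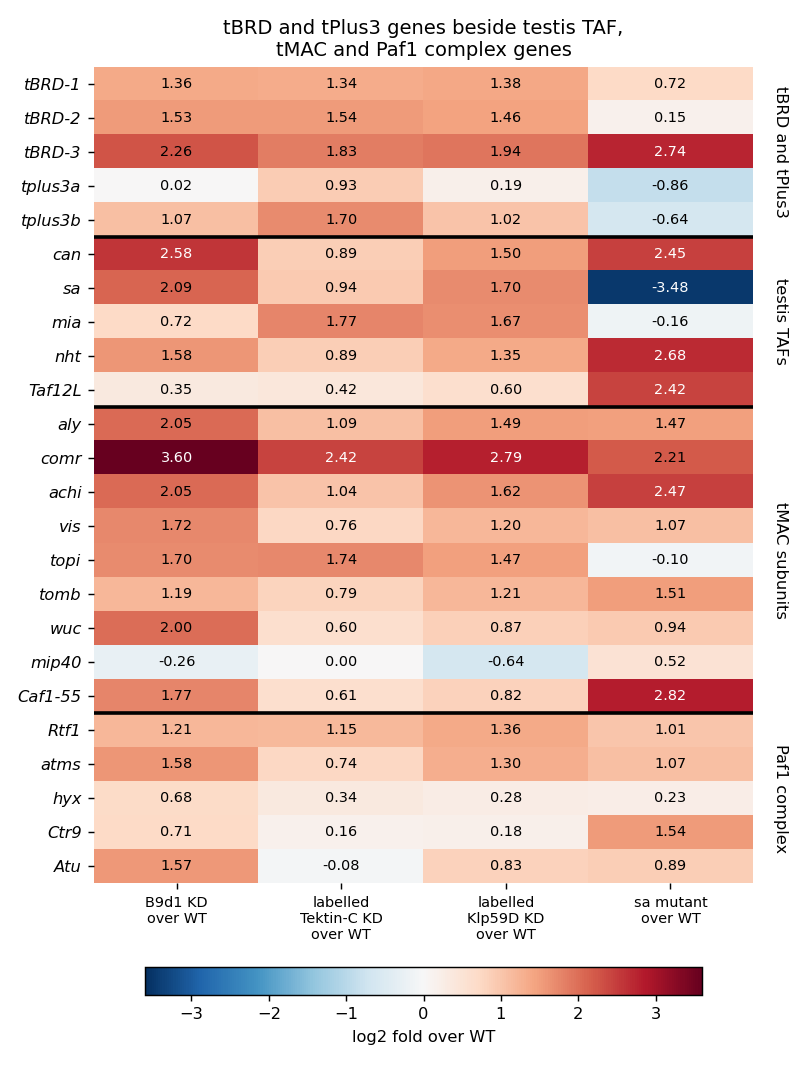
Log2 fold over WT (colour and printed value) of the 5 genes, 5 testis TAF genes, 9 tMAC genes and 5 Paf1 complex genes (rows) in each altered genotype (columns). With TMM scaling, tBRD-3 is high in all columns, while tBRD-2, topi and mia are near 0 in the sa mutant column and sa, the mutated gene, is at -3.48.

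Lists of genes taken as germ cell markers differed between the groups in the same comparisons. Which germ cell stage holds the RNA of each listed gene was not tested. Fewer cells of a stage and less marker RNA per cell cannot be told apart here. The sa mutant lacks a testis TAF, and the part of that loss in its marker levels was not tested. Summed over 17 measured spermatid markers, levels were 5454 and 5445 CPM in B9d1 KD, 16160 and 16230 CPM in the Tektin-C-labelled libraries, 6959 and 6961 CPM in the Klp59D-labelled ones, 1532 and 1529 CPM in the sa mutant and 27190 and 27280 CPM in WT, with 11, 3, 10 and 15 of the 17 at least 2-fold lower and 0, 3, 1 and 0 at least 2-fold higher than in WT, in that order. The median log2 folds of these markers were -1.63, 0.03, -1.35 and -3.66. Of all genes, 25.7%, 17.1%, 23.2% and 27.7% were at least 2-fold lower and 27.3%, 21.2%, 23.6% and 26.4% at least 2-fold higher. Scaled by library size alone, 9, 3, 5 and 13 of the spermatid markers were lower and 1, 4, 3 and 0 higher. The Tektin-C-labelled libraries were the closest to WT among the altered genotypes, and the sa mutant the farthest. The 7 measured spermatogonial markers summed to 797 and 798 CPM in B9d1 KD and 490 and 488 CPM in the Tektin-C-labelled libraries. The sums were 631 and 628 CPM in the Klp59D-labelled libraries, 447 and 454 CPM in the sa mutant and 281 and 285 CPM in WT. All altered genotypes had sums above WT, and 5, 2, 6 and 2 of the 7 were called higher and 0 lower. The largest parts of each sum were chinmo and Stat92E, at 456 and 196 CPM in B9d1 KD and 89.98 and 133 CPM in WT. Single markers departed from the sum. bam was highest in the sa mutant, at 38.6 CPM against 5.93 CPM in WT, though the sum there was the lowest among the altered genotypes. stg was at 1.96 CPM in the sa mutant and 2.07 CPM in WT.

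Markers of somatic cells were read in the same way. Of all genes, 25.7%, 17.1%, 23.2% and 27.7% were called lower and 27.3%, 21.2%, 23.6% and 26.4% higher over WT. Of 11 muscle sheath markers 9 were called lower in each altered genotype, with sums of 820 and 822 CPM in B9d1 KD, 1077 and 1085 CPM in the Tektin-C-labelled libraries, 1096 and 1125 CPM in the Klp59D-labelled ones, 1019 and 1003 CPM in the sa mutant and 3367 and 3369 CPM in WT. With library size alone 8, 9, 8 and 6 of them were called lower. Accessory gland markers, of a neighbouring gland, were called higher for 11, 12, 12 and 12 of 12, with sums of 467 to 472 CPM in B9d1 KD, 488 CPM in the Tektin-C-labelled libraries, 2712 to 2729 CPM in the Klp59D-labelled ones, 1177 to 1204 CPM in the sa mutant and 43.5 to 44.6 CPM in WT, where Acp63F was at 0 counts. The 9 hub and cyst cell markers summed to 170 to 171 CPM in B9d1 KD, 193 to 198 CPM in the Tektin-C-labelled libraries, 187 to 191 CPM in the Klp59D-labelled ones, 164 CPM in the sa mutant and 240 to 254 CPM in WT, with 2, 2, 2 and 4 called lower and 1, 2, 1 and 0 called higher over WT and median log2 folds of -0.19, 0.24, 0.04 and -0.04. With library size alone 2, 2, 2 and 2 of these 9 were called lower and 3, 2, 2 and 1 higher. Their median log2 folds were then 0.40, 0.34, 0.58 and 0.73. The drop in the sum lay in 2 genes named after their values were seen, Fas3 and hh. Fas3 had 15.4, 26.4, 21.2 and 32.7 CPM in the altered genotypes and 86.5 CPM in WT. The levels of hh were 8.28, 9.11, 9.39 and 9.85 CPM in them and 39.0 CPM in WT. In each knockdown these 2 genes fell by more than the sum did, and the rest of the list summed higher than in WT. In the sa mutant the rest summed to about the WT level. The part of these differences in the levels of the 5 genes was not tested.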

How the data were processed

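Total RNA of whole testes was sequenced with a stranded kit, per the labels. The authors deposited raw counts per gene as whole numbers. Trim Galore 0.4.1, STAR 2.5.1b and dm6 are named per the submitters' processing notes; which counter made the counts, and with which strand setting and annotation, is not given in the sources used here. Ensembl release 115 (same assembly) supplied symbols for 17138 identifiers, and their coordinates, and lacked 274. The 2 libraries of each group were compared and summed, since nothing in the labels beyond a replicate number sets them apart. Every comparison is described with no test, since p-values over such libraries would measure only their spread, which may be technical. Genes passing filterByExpr in edgeR 4.0.16 (R 4.3.3) were kept, and log2 CPM were computed with TMM factors (0.756 in WT to 1.29 in the sa mutant) and a prior count of 2. Fold intervals are Clopper-Pearson from the counts (scipy 1.17.1) and, without molecular identifiers, cover counting error only. Calls use the log2 CPM and a 2-fold threshold. The steps were tested on simulated counts.

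The 5 genes and the 12 lists (143 entries, 4 of them matched to no identifier) were chosen with earlier results of these data known. Genes named are the members, the targeted genes, the testis TAF, tMAC and Paf1 lists whole, up to 2 genes at each end of the other lists, and the 5 nearest profiles per member. The markers Acp63F, chinmo, Stat92E, bam and stg were named after their values were seen. Fly symbols were matched with case. The alternatives tried were scaling by RLE factors or by library size alone, keeping all 16513 counted genes or only the 10563 with CPM over 5 in at least 2 libraries, dropping 643 structural and mitochondrial RNAs, a prior count of 0.5, and leaving out each library in turn. Sequences of the genes were not used here.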

Additional observations from a re-analysis of the deposited data

How the results depend on the processing

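No paired analysis was possible because each group counts as 1 sample and the results come from no test. Of the 120 counts of called members under alternatives other than leaving out a library, 117 stayed within 1.5 times the main count. Most main counts were 0, so much of this is 0 set against 0, and a change from 3 to 2 members counts as staying. The 3 that moved came from library size alone: 2 members at least 2-fold higher in the sa mutant over WT (1 with TMM), 1 lower in the Tektin-C-labelled libraries than in the sa mutant (0 with TMM) and 1 lower in the Klp59D-labelled ones than in the sa mutant (0 with TMM). Members higher than WT in the Klp59D-labelled libraries were 3 in place of 4 with RLE factors, without structural RNA and mitochondrial genes, and without their replicate 2, with the log2 fold of tplus3b at 0.99 to 1.00. Those in the Tektin-C-labelled libraries were 5 in place of 4 with library size alone and without WT replicate 1. Library size alone moved log2 folds of members by -0.67 to 0.78. The other alternatives on all libraries moved them by at most 0.08, and leaving out a library by at most 0.18, with WT replicate 2 left out.

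List counts under other scalings and with a library left out were added after seeing the data. Counts of all genes at least 2-fold higher and lower with library size alone were 5665 and 2271 (3775 and 3558 with TMM) in B9d1 KD over WT, 5187 and 2033 (3271 and 3204) in the Klp59D-labelled libraries over WT, 6153 and 2494 (3657 and 3833) in the sa mutant over WT, 4032 and 1518 (2022 and 2730) in B9d1 KD over the Tektin-C-labelled libraries, and 1013 and 2587 (2004 and 933) in those over the Klp59D-labelled libraries. Against the sa mutant they were 2841 and 2891 (3312 and 2229) in B9d1 KD, 2796 and 6086 (3748 and 3261) in the Tektin-C-labelled libraries and 2847 and 3116 (3319 and 2248) in the Klp59D-labelled ones. The filter of CPM over 5, which tests fewer genes, gave 1928 higher (2932) in the Tektin-C-labelled libraries over WT, 523 higher (869) and 512 lower (986) in B9d1 KD over the Klp59D-labelled libraries, 467 lower (933) in the Tektin-C-labelled libraries than in the Klp59D-labelled ones, and 1452 lower (2229) in B9d1 KD than in the sa mutant. Depth limits tBRD-3 and the Plus3 genes most, with 267, 269 and 344 counts in WT.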

Other observations

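The general counterparts of the 5 genes were also counted against WT. Of 14 general bromodomain genes 8 were at least 2-fold higher in B9d1 KD, 4 in the Tektin-C-labelled libraries, 6 in the Klp59D-labelled ones and 4 in the sa mutant, and 0 lower, with median log2 folds of 1.38, 0.62, 0.72 and 0.15. Of all genes 27.3%, 21.2%, 23.6% and 26.4% were at least 2-fold higher. In B9d1 KD the largest folds were those of polybromo, a chromatin remodelling subunit (8.17), and Taf1, the largest subunit of the general factor TFIID (5.21), and the smallest those of Gcn5 (1.05) and dikar (1.65). In the sa mutant Brd8 had 234 CPM against 23.1 CPM in WT, 10.1-fold, while Taf1 had 51.3 CPM against 44.2 CPM. Taf1 was at 231 CPM in B9d1 KD, 164 CPM in the Tektin-C-labelled libraries and 239 CPM in the Klp59D-labelled ones. With TMM it thus stood near WT in the sa mutant and high in the knockdowns, as tBRD-2 did.

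Of 16 elongation factor genes 10 were called higher in B9d1 KD, 3 in the Tektin-C-labelled libraries, 6 in the Klp59D-labelled ones and 10 in the sa mutant, with 0 lower. In the sa mutant Ssrp, a subunit of the histone chaperone FACT, was at 6.97-fold and Cdk9, the P-TEFb kinase, at 6.33-fold over WT, while CycT, the cyclin that pairs with Cdk9, was at 1.12-fold. Of 29 measured Mediator genes 15, 2, 8 and 18 were called higher in the same order of groups, with MED20 at 6.29-fold and MED8 at 4.95-fold in the sa mutant, and MED9 had no counts in any library. ix, the 1 Mediator gene called lower in B9d1 KD and in the Tektin-C-labelled libraries, was at 0.441 times the WT level in B9d1 KD and had 2.04 and 0.757 CPM in the Tektin-C-labelled libraries and 3.21 and 2.55 CPM in WT. Neither call held without WT replicate 1, and each was also lost without 1 knockdown library (B9d1 KD replicate 1, Tektin-C-labelled replicate 2). Under scaling by library size alone the counts called higher were 13, 4, 9 and 5 for the bromodomain genes, 14, 3, 12 and 14 for the elongation factors and 25, 4, 22 and 26 for Mediator, while the share of all genes called higher was then 41.0%, 23.7%, 37.5% and 44.5%, against 27.3%, 21.2%, 23.6% and 26.4% with TMM. The lists were chosen with earlier results known, and these values are descriptions.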
